A study of Mus musculus with 4 samples.

Results

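The deubiquitinases described here are the ubiquitin-specific proteases together with the ovarian tumour (OTU) and ubiquitin C-terminal hydrolase (UCH) families. They were taken as every probe set annotated to 1 gene symbol that begins with Usp and a digit, Otud, Uchl or Otub, leaving out Usp18. The rule found 153 of the 45101 probe sets on the arrays, and they carried 62 of 18194 gene symbols. USP symbols made up 50 of these (127 probe sets), OTU symbols 9 (22 probe sets) and UCH symbols 3 (4 probe sets). Usp6nl, a Rab GTPase-activating protein, and Usp46os2, a noncoding gene on the strand opposite Usp46, meet the rule by name and are not deubiquitinases. Another 5 probe sets with several symbols, among them the only one for Uchl3, were not counted as members.

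Cytoplasmic RNA came from Neuro2A cells, a mouse neuroblastoma line, in a 4.5SH knockdown group (depletion of endogenous 4.5SH by transfected antisense oligonucleotides at 30 nM) and a control group, with 2 arrays each. 4.5SH is a small noncoding RNA of rodents, related in sequence to B1 repeats, and the comparison was made to find genes with an antisense B1 element on which it acts. The oligonucleotide given to the control cells is not stated in the sources used here, so loss of 4.5SH and other effects of the transfection cannot be told apart. The replicates are called biological in the labels. Nothing says whether they came from separate transfections, so the p-values cover only the spread among these 4 samples, and that may be technical. In RNA from a whole dish, fewer cells and less RNA per cell cannot be told apart.

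Ubiquitin is attached to proteins singly or in chains, which mark them for the proteasome or change their activity and location. Deubiquitinases cut it off again: they rescue substrates, edit chains and return free ubiquitin to the pool. Most belong to the USP family of cysteine proteases. UCH enzymes prefer small or disordered adducts, and many OTU enzymes cut only certain chain types. Several work only in a complex, such as Usp14 and Uchl5 on the proteasome, Usp22 in the SAGA coactivator, or Usp1, Usp12 and Usp46 with the repeat protein Wdr48. Uchl1 is among the most abundant proteins of neurons.

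The values are MAS5 signals, 1 intensity per probe set on a linear scale, and the number of arrays limits their precision. Knockdown arrays were dimmer, with 2% trimmed mean signals of 128 and 132 beside 149 and 143 in the control. How the deposited signals were scaled between arrays is unknown. Of 14 sympathetic neuroblastoma markers with a probe set, 10 passed the filter on dim probe sets, with summed signals of 8175 and 8257 (knockdown) beside 9253 and 9320 (control). Of these 10, Gata2, Stmn2 and Phox2a were lower and none was higher. Gata3, Th, Nefl and Nefm did not pass it. The other 7 did not pass, at differences between -0.13 (Hand2) and 0.31 (Isl1). Of the glial markers 2 of 7 passed the filter, of the fibroblast markers 2 of 6, of the Schwann cell markers 1 of 2 (Sox10) and of the blood cell markers 2 of 4. The summed signals were 46.3 and 67.8 against 56.1 and 62.9 for glia, 93.2 and 69.7 against 57.9 and 58.3 for fibroblasts, 28.8 and 25.4 against 9.7 and 9.2 for Schwann cells, and 360 and 350 against 639 and 747 for blood cells, nearly all of it Cd68. Sox10 was called higher and Cd68 lower. The control mean of Sox10 (9.45) was under the filter of 16.9, so Sox10 was tested only through its knockdown arrays. None of these lists was at 0, and their part in the results was not tested. Of 3 nuclear RNAs, Malat1 (-2.50) and Neat1 (-0.72) were lower, and Meg3 (0.36) did not pass.

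Of the 153 member probe sets 114 were bright enough to be tested, which covered 51 of the 62 genes. Differences are log2(signal + 16), knockdown minus control, with the standard error of a limma fit over all 22525 tested probe sets or, for a gene, over the brightest tested probe set of each of 11814 genes. Because of the added 16 they understate the change of dim genes. A probe set or gene was called at a Benjamini-Hochberg adjusted p under 0.05. At probe set level 16 members were higher in the knockdown, 18 were lower and 80 did not pass. Of all tested probe sets 9.76% were higher and 25.8% lower. In either direction 29.8% of the members were called, against 35.6% of all. At gene level 9 of 51 rose, 11 fell and 31 did not pass. Over all tested genes 45.1% were called, 9.84% higher and 35.2% lower. The groups' arrays did not overlap in 67 of the 114 member probe sets, 58.8% beside 66.9% of all, and in 33 of the 51 genes, 64.7% beside 71.4%. A call with a difference of 1 or more on the log2(signal + 16) scale was made for 2 member probe sets, of Usp21 and Usp19. That of Usp19 was dim and passed the filter only through its control arrays. Such a call was made for 2.28% of all tested probe sets. By the ratio of mean signals, called probe sets of Usp7 (2.06), Usp15 (2.29) and Usp48 (2.15) were past 2-fold too. The median difference was -0.032 over the member probe sets and -0.11 over all tested probe sets, and -0.062 and -0.17 for genes.

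**Figure D1:**
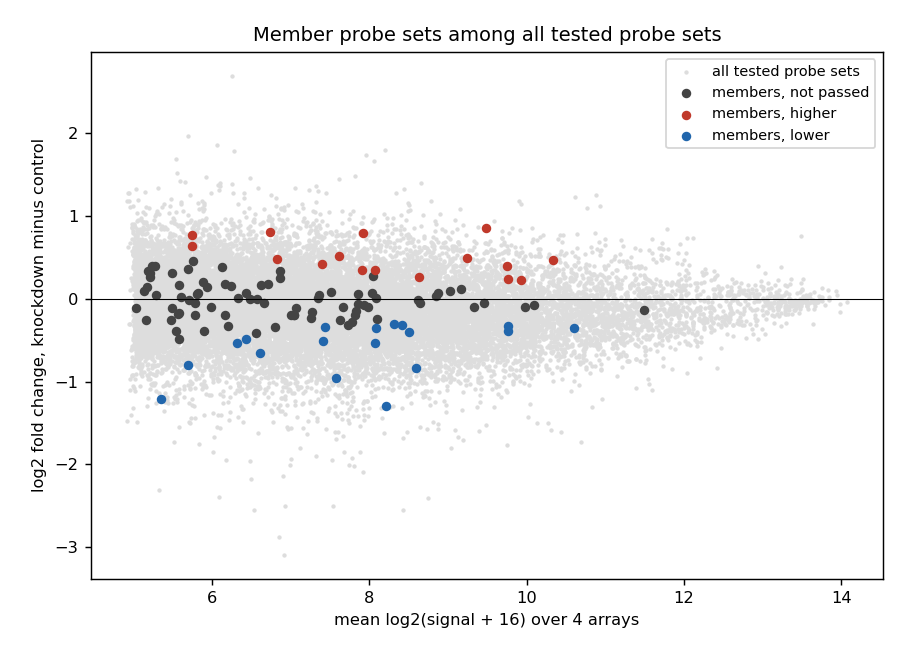
Each point is a tested probe set, with its mean log2(signal + 16) over 4 arrays on the horizontal axis and its log2 fold change (knockdown minus control) on the vertical axis. Members called higher (red), called lower (blue) or not passed (dark grey) lie within the cloud of all 22525 tested probe sets (light grey), between -1.29 and 0.86.

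Among the 29 brightest tested member probe sets, with mean signals of 258 to 2868, 17 were called, 7 higher and 10 lower. Among the 29 dimmest, at mean signals up to 40.7, 4 were called. The share called among all probe sets at these signals is not given here. In a fit of the brightest 25% of all probe sets alone, with its own adjustment, 13 of 55 members were higher and 15 lower. Of all probe sets in that fit 13.9% were higher and 42.6% lower. In all 56.5% were called there, beside 35.6% of all tested probe sets in the main fit.

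The split between higher and lower depended on how the arrays were scaled. At probe set level quantile scaling gave 22 higher and 10 lower members, centring on the tested probe sets 21 and 11, centring on all probe sets 16 and 16, and scaling on the mean of 9 hybridization spike-in probe sets 7 and 29. Among all tested probe sets, in the same order, 16.9%, 16.8%, 10.3% and 4.63% were higher, and 16.7%, 17.7%, 23.8% and 35.6% were lower. For genes the same settings gave 13 and 5, 13 and 6, 9 and 9, and 4 and 16. Of all 11814 tested genes they called 2095 and 2686, 2006 and 2890, 1227 and 3835, and 529 and 5449. The median of all tested genes moved from -0.17 to -0.038, -0.034, -0.14 and -0.31 in this order, so a difference near 0 has no firm direction. On all 5 scales Otud6b, Usp1, Usp14 and Usp48 were called higher at gene level, and Usp11, Usp19, Usp21, Usp39 and Usp54 lower. In the fit over probe sets, the brightest of Usp48 did not pass with spike-in scaling (adjusted p = 0.0632, limma). That of Usp54 did not pass with quantile scaling (adjusted p = 0.0557, limma). Apart from scaling, a fit with no intensity trend ended the gene-level calls of Otud3, Uchl1, Uchl5, Usp1, Usp15, Usp20, Usp33 and Usp9x, and a fit with no filter those of Uchl1, Usp20, Usp28, Usp33 and Usp53.

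**Figure D2:**
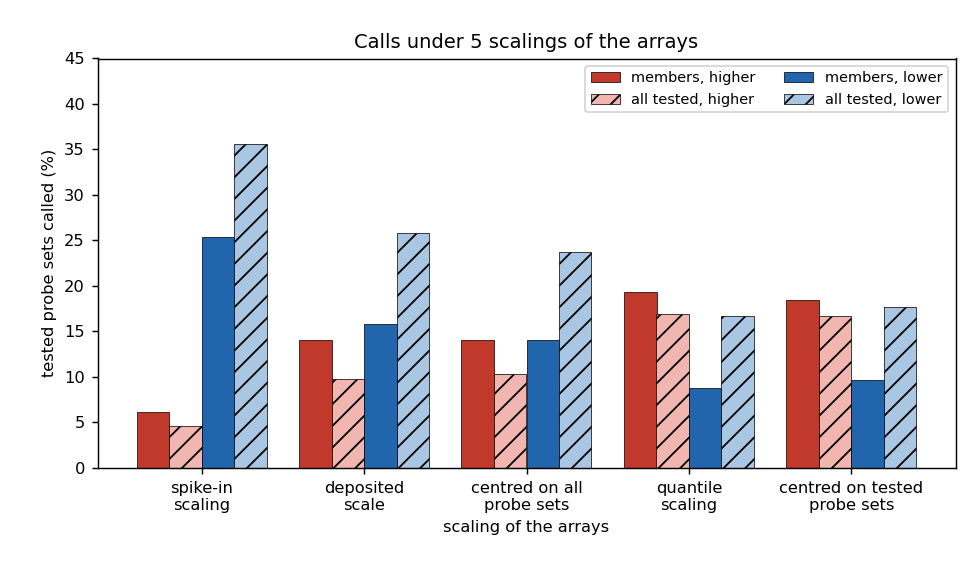
Bars give the percentage of tested probe sets called higher (red) or lower (blue) in the knockdown, for the members (solid) and for all tested probe sets (hatched), under 5 scalings of the arrays. The members' lower share stays under that of all tested probe sets on each scale, from 29 of 114 members with spike-in scaling to 10 with quantile scaling.

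**Figure D3:**
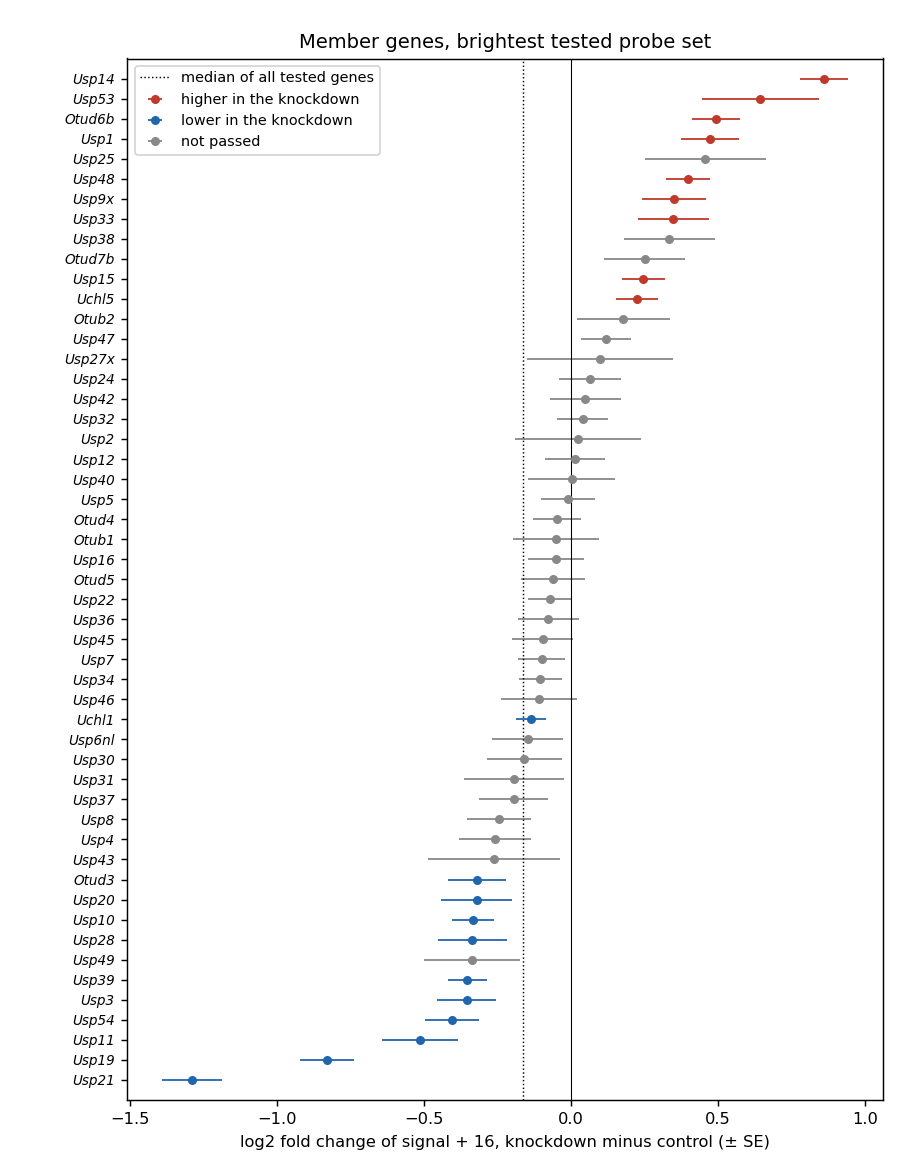
Points are the 51 tested member genes at their brightest probe set, with the log2 fold change (knockdown minus control) and its standard error on the horizontal axis. Usp14 (0.86) and Usp21 (-1.29) mark the ends, and the dotted line is the median of all tested genes (-0.17).

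Members are grouped by role, and these groups were set after the values were seen. Over all tested genes 45.1% were called, 9.84% higher and 35.2% lower. Of 3 proteasome-linked genes 66.7% were called, and of 9 acting on histones and transcription 22.2%. Of 7 in DNA damage signalling and the cell cycle 57.1% were called, of 14 in membranes and signalling 35.7%, and of 7 OTU genes 28.6%. Among the proteasome-linked enzymes 2 of 3 tested genes rose and none fell. Usp14, which trims chains on substrates docked at the proteasome, had the largest rise of the member genes at their brightest probe set, on the log2(signal + 16) scale. With a pseudocount of 1 Usp53 was higher (0.90 against 0.88), as was a dim probe set of Usp48 (1.09). Its brightest probe set read 886 and 1024 in knockdown cells against 528 and 507 in control cells, a difference of 0.86 ± 0.08 (adjusted p = 4.21e-07, limma). Both knockdown arrays lay well above both control arrays. Of its 4 tested probe sets 3 were higher, the others at 0.48 and 0.42, while the dimmest, at 23.6 and 23.4 against 22.8 and 21.6, did not pass. In the RefSeq gene table Usp14 overlaps Thoc1, an mRNA export gene, of whose 4 tested probe sets 1 was higher.

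Uchl5, which sits on the ubiquitin receptor of the proteasome and also in the INO80 remodelling complex, read 988 and 1095 against 884 and 893. The difference of 0.22 ± 0.07 passed (adjusted p = 0.0177, limma) but not with scaling on the mean or the median of the spike-ins (0.082 and 0.11), with no intensity trend (adjusted p = 0.123, limma) or without knockdown replicate 2 (0.15). Usp5, which takes apart free ubiquitin chains, was at -0.011 ± 0.09, with arrays of 363 and 391 against 370 and 390 that overlap. Its relative Usp13 was below the filter.

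Of 9 tested genes acting on histones and transcription 2 fell, none rose and 7 did not pass. Usp21, which removes ubiquitin from histone H2A, had the largest fall of the member genes at their brightest probe set. A dim probe set of Usp19 fell by more in the ratio of mean signals (4.22 against 2.58), and with a pseudocount of 1 (-2.01 against -1.36). Its single probe set read 179 and 167 in knockdown cells against 475 and 419 in control cells, so the control mean was 2.58 times the knockdown mean. The difference was -1.29 ± 0.10 (adjusted p = 6.24e-08, limma), from -1.38 to -1.20 when each array was left out in turn. Usp3, also a histone deubiquitinase, read 229 and 221 against 303 and 281 and fell by 0.36 ± 0.10 (adjusted p = 0.0086, limma). All 5 of its tested probe sets were below 0, and 2 were called, the larger at -0.65. The brightest no longer passed with quantile scaling (-0.17), with tested probe sets centred (-0.22) or without knockdown replicate 2 or control replicate 1 (-0.33 and -0.31).

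Usp22, the deubiquitinase of the SAGA coactivator, was at -0.072 ± 0.08 with 1063 and 1026 against 1183 and 1020, which overlap. The H2A deubiquitinase Usp16 (-0.052), the nucleolar Usp36 (-0.077), Usp42 (0.048), Usp27x (0.10) and Usp49 (-0.34) did not pass either. Usp7, which acts on the p53 ligase Mdm2, was split between probe sets. Its brightest read 578 and 637 against 659 and 644, at -0.10 ± 0.08, and did not pass. A dimmer one, singled out after its value was seen, read 127 and 116 against 254 and 246 (-0.95 ± 0.11, adjusted p = 2.92e-05, limma). The other 4 tested probe sets of Usp7 lay between -0.33 and 0.32 and did not pass.

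Genes of DNA damage signalling and the cell cycle gave 1 rise, 3 falls and 3 that did not pass among 7. Usp1, which removes ubiquitin from the Fanconi protein Fancd2 and from the replication clamp PCNA, was higher at all 3 tested probe sets. The brightest read 1464 and 1535 against 1254 and 922, with the control arrays far apart (1088 ± 235, SD, n = 2), and gave 0.47 ± 0.10 (adjusted p = 0.000876, limma). The dimmer ones had closer replicates: 285 and 322 against 166 and 170 (0.79 ± 0.11), and 120 and 131 against 65.9 and 63.7 (0.80 ± 0.14). Leaving out control replicate 1 took the brightest to 0.69 and leaving out control replicate 2 to 0.25. Each of these fits holds 1 control array, so the spread between the control arrays does not enter it. With no intensity trend in the fit the brightest was not called (adjusted p = 0.078, limma).

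Usp11, a nuclear enzyme of recombination repair, read 136 and 118 against 207 and 171 and fell by 0.51 ± 0.13 (adjusted p = 0.00364, limma). Without knockdown replicate 2 it was at -0.42 and passed narrowly. Usp10, which acts on p53 and binds the stress granule protein G3bp1, fell by 0.33 ± 0.07, from 991 and 935 to 763 and 759 (adjusted p = 0.00108, limma). With quantile scaling it was at -0.15 and did not pass. Usp28, which stabilises Myc, was at -0.34 ± 0.12 with 140 and 137 against 185 and 174 (adjusted p = 0.0265, limma). Its call was lost without either knockdown array (-0.35 and -0.32), without control replicate 1 (-0.29), with quantile scaling (-0.19) and with tested probe sets centred (-0.21). Usp37, a regulator of cyclin A, was at -0.20, Usp45 at -0.10 and Usp47 at 0.12 by their brightest probe sets, none of which passed. The second probe set of Usp47 was higher, with 431 and 407 against 362 and 333 (0.26 ± 0.09).

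**Figure D4:**
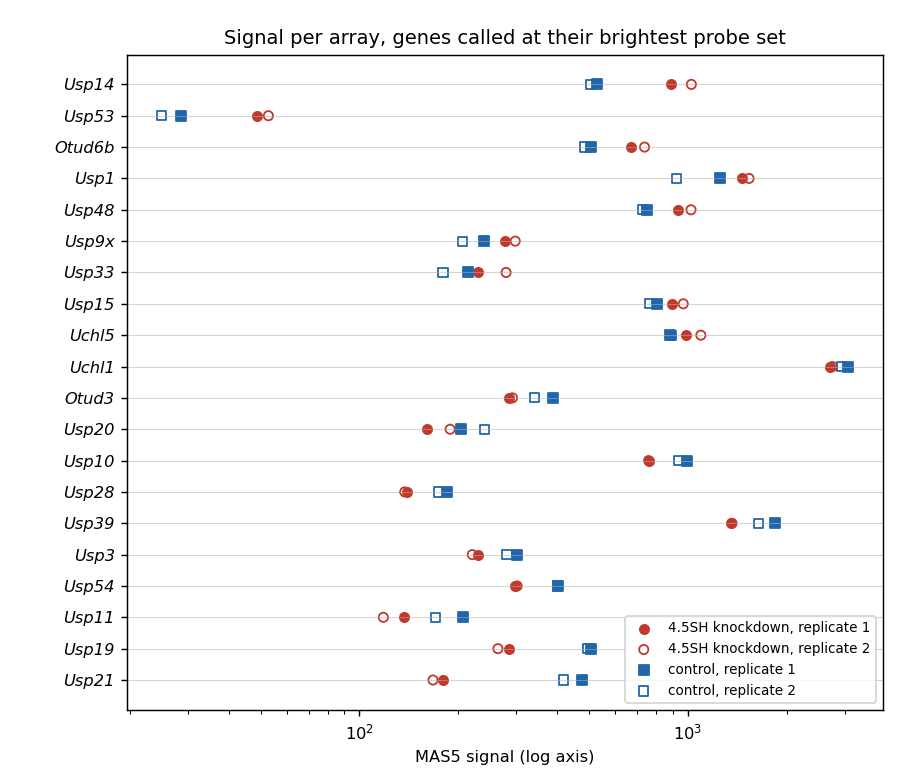
Each row is 1 of the 20 genes called at its brightest probe set, ordered by log2 fold change, and the horizontal log axis is the MAS5 signal of each array (red circles knockdown, blue squares control, filled replicate 1, open replicate 2). In each row the 2 knockdown arrays lie to one side of the 2 control arrays, widely so for Usp14, Usp19 and Usp21 and narrowly for Usp20, Usp33 and Uchl1.

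Enzymes of membranes, organelles and signalling were the largest set, with 3 rises, 2 falls and 9 that did not pass among 14. Usp19, anchored in the endoplasmic reticulum membrane, was lower at all 3 of its tested probe sets. The brightest read 286 and 264 against 507 and 493 (-0.83 ± 0.09, adjusted p = 1.65e-06, limma). The next read 212 and 202 against 314 and 302 (-0.54 ± 0.10). The dimmest fell from 52.9 and 39.2 to 13.7 and 8.1 (-1.20 ± 0.23). Its knockdown mean of 10.9 was under the filter of 16.9, so it was tested only through its control arrays. The groups were apart at each probe set.

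Usp9x, an X-linked enzyme of signalling and cell adhesion, rose by 0.35 ± 0.11 at its brightest probe set (278 and 298 against 240 and 206, adjusted p = 0.0134, limma). One more of its 6 tested probe sets was higher, at 0.51, and the other 4 lay between -0.20 and 0.40. The call was lost with spike-in scaling (0.21), as the mean of probe sets (0.22), and without knockdown replicate 2 (0.30) or control replicate 2 (0.25). Usp33, which acts on receptor recycling, read 230 and 280 against 214 and 180 (0.35 ± 0.12, adjusted p = 0.0262, limma), and Usp20, its closest relative, 160 and 189 against 203 and 241 (-0.32 ± 0.12, adjusted p = 0.0394, limma). Both gaps between groups were small, and in the fit over probe sets Usp20 did not pass (adjusted p = 0.0594, limma). Without control replicate 2 Usp33 was at 0.23 and Usp20 at -0.21, without knockdown replicate 2 Usp33 was at 0.22 and without knockdown replicate 1 Usp20 was at -0.21, all not called. Spike-in scaling also ended the call of Usp33 (0.20). For Usp20, centring on all probe sets (-0.30), centring on the tested probe sets (-0.19), quantile scaling (-0.16) and the mean of probe sets (-0.27) did so.

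Usp15, which acts on TGF-beta signalling, rose by 0.25 ± 0.07 at its brightest probe set, with 897 and 968 against 805 and 762 (adjusted p = 0.0115, limma). A dim one was called the other way: 16.2 and 31.8 against 74.9 and 34.9 (-0.79 ± 0.27, adjusted p = 0.0366, limma). The second control array lay just above the higher knockdown array. Without control replicate 1 this probe set was at -0.38 and without knockdown replicate 1 at -0.51, both not called. The mean of the 5 tested probe sets was -0.08, not called, and the rise of the brightest was lost without knockdown replicate 2 (0.19), without control replicate 2 (0.21) and with spike-in scaling (0.10). Of the others, the endosomal Usp8 (-0.25), the mitochondrial Usp30 (-0.16), Usp4 (-0.26), Usp25 (0.46 ± 0.20), Usp32 (0.04), the Wnt regulator Usp34 (-0.10) and the clock-linked Usp2 (0.023) did not pass at their brightest probe set. A second probe set of Usp30, at 51 and 64 against 83.2 and 89.3, was lower (-0.48 ± 0.16).

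In the remaining USP genes, Usp48 rose by 0.40 ± 0.07 at a probe set of 932 and 1022 against 749 and 726 (adjusted p = 0.000321, limma). A dim probe set was also higher, 50.4 and 57.5 against 28.7 and 21.4 (0.77 ± 0.20). Its remaining probe set went the other way, 266 and 276 against 364 and 314 (-0.30 ± 0.10, adjusted p = 0.0341, limma over probe sets), and lost its call when any 1 array except control replicate 2 was left out (-0.33 to -0.20). Usp53, a tight junction protein with a USP domain, read 48.9 and 52.8 against 28.6 and 25 at its 1 tested probe set and rose by 0.64 ± 0.20 (adjusted p = 0.0135, limma), but not with spike-in scaling (0.50) or without knockdown replicate 2 (0.60, adjusted p = 0.0796, limma). Usp54, related to it, fell by 0.41 ± 0.09 with replicates close together, 297 and 302 against 403 and 401 (adjusted p = 0.00155, limma). Usp24, Usp31, Usp38, Usp40 and Usp43 lay between -0.26 and 0.33 and did not pass.

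Usp39, a splicing factor whose protease domain is inactive, fell at both of its probe sets. The brighter read 1350 and 1362 against 1838 and 1641 (-0.35 ± 0.07, adjusted p = 0.000318, limma) and the other 720 and 774 against 1028 and 933 (-0.38 ± 0.08). Usp6nl, not a deubiquitinase, was at -0.15 and did not pass.

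Uchl1, the neuronal hydrolase, was the brightest member, with 2713 and 2750 in knockdown cells against 3079 and 2931 in control cells. It was at -0.14 ± 0.05, called at gene level (adjusted p = 0.0402, limma) but not at probe set level (adjusted p = 0.0608, limma). The gene-level call was lost without either knockdown array (-0.13 and -0.15), without control replicate 1 (-0.10), with quantile scaling (-0.013), and after centring on all (-0.12) or on the tested probe sets (-0.0055). The difference was smaller in size than the median of all tested genes.

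Of 7 tested OTU genes 1 rose, 1 fell and 5 did not pass. Otud6b read 670 and 738 against 505 and 486 and rose by 0.49 ± 0.08 (adjusted p = 0.000111, limma). Otud3 was at -0.32 ± 0.10 with 285 and 292 against 389 and 340 (adjusted p = 0.0135, limma). It was not called without knockdown replicate 1 (-0.30), without control replicate 1 (-0.23), with quantile scaling (-0.13), with centring on the tested probe sets (-0.19) or as the mean of probe sets (-0.26). Otub1, which cuts K48-linked chains, read 84.3 and 82.8 against 92.4 and 82.0 (-0.050 ± 0.15), and Otub2 98.5 and 93 against 97.4 and 70.0 (0.18 ± 0.16). In both the groups overlapped. Otud4 (-0.048), Otud5 (-0.062) and Otud7b (0.25), which cuts K11-linked chains, did not pass at the brightest probe set. One of 4 tested probe sets of Otud7b was lower, at 48.1 and 52.4 against 78.8 and 81.4 (-0.54 ± 0.16).

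The 11 genes with no tested probe set held 17 probe sets, whose signal was between 0.4 and 21.9 on any array. Usp26, Usp29, Usp9y and Usp17la, the histone enzyme Usp44, the Usp5 relative Usp13, the catalytically dead Usp50, Otud1, Otud7a, Uchl4 and Usp46os2 made up this set. At such signals no difference was tested, and a low signal does not show that a gene was silent.

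Probe sets of one gene often differed in sign or in call, though the sign of a difference near 0 is not firm. Of 31 genes with more than 1 tested probe set, 18 had all of them on the same side of 0. In 3 genes, Usp1, Usp19 and Usp39, all were called the same way. For Usp19 this counts a dim one that passed the filter only through its control arrays. In 8 genes some were called in 1 direction, in 2, Usp15 and Usp48, they were called in both, and in 18 none was called.

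**Figure D5:**
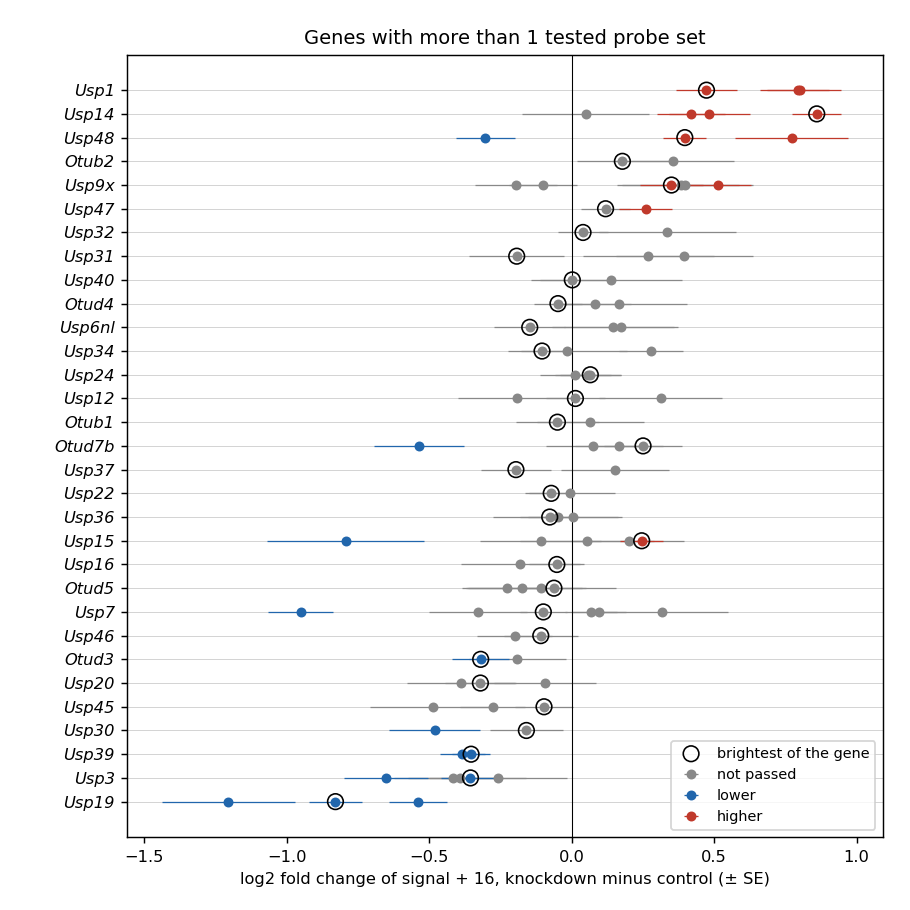
Each row is 1 of the 31 genes with more than 1 tested probe set, and points with standard errors are the log2 fold changes (knockdown minus control) of its probe sets, the brightest ringed, with red for higher, blue for lower and grey for not passed. Usp1 and Usp19 keep all probe sets on one side, while Usp48, Usp15 and Usp7 spread across 0.

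Close relatives were set side by side at their brightest probe sets, and the differences between them were not tested. Usp20 and Usp33 stood at -0.32 and 0.35. Usp11 fell by 0.51 where Usp15 was at 0.25 and Usp4 at -0.26. Usp28 was at -0.34 and Usp25 at 0.46, of which the second did not pass. Usp12 (0.013) and Usp46 (-0.11), Usp16 (-0.052) and Usp45 (-0.10), Usp22 (-0.072) and Usp27x (0.10), and Otub1 and Otub2 did not pass in either gene. The probe set shared by Uchl3 and Uchl4 read 794 and 759 against 1161 and 1198 (-0.59 ± 0.07), and cannot be assigned to one of them.

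Other enzymes that remove ubiquitin or related tags, listed with proteins that share their domains, moved in both directions. Of 27 tested, 5 were higher, 8 were lower and 14 did not pass. The list had 48.1% called, beside 45.1% of all tested genes. Zup1, which cuts K63-linked chains, read 496 and 556 against 1104 and 1018 and fell by 0.99 ± 0.08. Alg13, a glycosylation enzyme with an OTU domain, rose by 0.89 ± 0.10, from 221 and 189 to 386 and 399. Eif3h, a translation initiation subunit of the JAMM fold, rose by 0.25 ± 0.04, and Mindy1, which trims long K48-linked chains, fell by 0.51 ± 0.10. In all 4 genes the groups did not overlap. The list's median was -0.059, and 0.11 with quantile scaling, where 6 were higher and 4 lower.

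Of 23 tested proteins that bind or activate the members, 1 rose, 9 fell and 13 did not pass, so 43.5% were called, near the 45.1% of all tested genes. Their median was -0.21, beside -0.17 for all genes. With quantile scaling 4 rose and 4 fell. Nfrkb, the INO80 partner of Uchl5, read 276 and 245 against 486 and 448 and fell by 0.80 ± 0.10. Wdr48, the activator of Usp1, Usp12 and Usp46, was at -0.49 ± 0.10 with 297 and 277 against 376 and 443, and 2 of its 3 tested probe sets were lower. Eny2, of the SAGA deubiquitinase module with Usp22, read 1182 and 1248 against 1801 and 1608 (-0.48 ± 0.07), and 3 of its 6 tested probe sets were lower. Gmps, a GMP synthetase that activates Usp7, was the 1 rise: 1542 and 1637 against 1111 and 1150, at 0.49 ± 0.06. Of its 3 tested probe sets 1 was higher, and the lowest was at 0.15.

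In a list of ubiquitin genes and their activation and shuttle proteins, 5 of 10 genes were tested, of which Ubqln2 rose, Uba7 fell and 3 did not pass. Ubqln2, which carries ubiquitinated proteins to the proteasome, read 3337 and 3446 against 2336 and 2156 (0.59 ± 0.055). The other tested probe set of Ubqln2 was at -0.18 and did not pass. Uba7, which activates the ubiquitin-like Isg15, read 48.3 and 41.7 against 64.6 and 96.2 (-0.64 ± 0.19), at 1 of 3 tested probe sets.

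Promoter windows of 250 bases before the start site were taken from RefSeq (GRCm38.p6) for 48 member genes, 13 of them called. Shown are 2 falls and 1 rise whose windows lie in no other gene of the RefSeq table. A whole chromosome was also left out of the choice. Larger falls or other rises with such windows may therefore be missing. Capitals mark motif letters, searched on either strand, and no match overlaps another in these windows. The GC box, bound by Sp1, was searched as GGGCGG. The box bound by NF-Y was searched as CCAAT. For ETS factors the search used CCGGAAG. The E-box, bound by Myc and Usf proteins, was searched as CACGTG. The TATA box, bound by the general transcription machinery, was searched as TATAAA. The windows are chr1:171287962-171288211 on the minus strand for Usp21, chrX:20703659-20703908 on the plus strand for Usp11, and chr4:137593922-137594171 on the plus strand for Usp48.
Usp21: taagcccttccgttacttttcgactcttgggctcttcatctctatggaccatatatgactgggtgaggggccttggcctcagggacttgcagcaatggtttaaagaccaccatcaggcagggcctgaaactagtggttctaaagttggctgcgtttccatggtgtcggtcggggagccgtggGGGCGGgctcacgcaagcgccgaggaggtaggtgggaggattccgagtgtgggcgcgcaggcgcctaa
Usp11: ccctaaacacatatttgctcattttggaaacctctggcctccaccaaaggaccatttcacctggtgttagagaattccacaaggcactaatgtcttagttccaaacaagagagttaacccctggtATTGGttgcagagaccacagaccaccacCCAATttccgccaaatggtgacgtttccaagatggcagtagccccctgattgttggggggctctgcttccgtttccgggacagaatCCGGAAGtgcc
Usp48: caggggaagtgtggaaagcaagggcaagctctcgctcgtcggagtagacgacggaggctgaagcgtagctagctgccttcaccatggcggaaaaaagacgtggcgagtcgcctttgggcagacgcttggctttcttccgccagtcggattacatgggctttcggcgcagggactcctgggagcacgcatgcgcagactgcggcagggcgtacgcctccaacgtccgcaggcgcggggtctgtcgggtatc
The Usp21 window holds 1 GC box, that of Usp11 2 CCAAT boxes and 1 ETS motif, and that of Usp48 none of the 5 motifs. GGGCGG was found in 6 of 10 windows of genes that fell, 2 of 3 that rose and 19 of 26 that did not pass, and in 33.0% of all 27025 windows. CCAAT was found in 3 of 10, 0 of 3 and 3 of 26, and in 34.5% of all. The ETS motif was found in 1 of 10, 0 of 3 and 7 of 26, and in 7.07% of all windows, the E-box in 1 of 10, 0 of 3 and 4 of 26, and in 6.04% of all, and the TATA box in 1 of 10, 0 of 3 and 1 of 26, and in 13.0% of all. Of the 9 windows of genes below the filter 6 held CCAAT and 3 GGGCGG. Letters in a window are a description and show no bound factor.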

How the data were processed

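Cytoplasmic RNA of 2 knockdown and 2 control samples was hybridised to mouse Affymetrix arrays. The authors deposited intensities as MAS5 signals on a linear scale, per the submitters' processing notes; the sources used here give no version, scaling or filter. Genes were named from probe sets with 1 symbol in the platform annotation, and 61 of 62 member symbols matched the RefSeq gene table by Entrez identifier. Log2(signal + 16) was used with no added scaling. Probe sets with a mean signal at or above the median of the 45037 non-control probe sets (16.9) entered the test, made in R 4.3.3 by limma 3.58.1 (eBayes with an intensity trend, two-sided, 13.6 degrees of freedom), over probe sets and over the brightest one of each gene. For 2 against 2 arrays the smallest exact permutation p is 0.333, so each p rests on variance that limma shares across genes.

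The members, lists and tests were chosen with earlier results of these data known, and role groups after the values were seen. The filter was planned on the mean signal; after a first fit had been seen, a filter on the mean log2 value was used for a time, and the planned one was then restored. Spike-in scaling was first run on the mean of the spike-ins, and their median was tried after that result was seen. Both changes are given as alternatives added after seeing the data. The simulated data on which the fit was tested were also redrawn once, since the first version, which shuffled spreads across intensities, recovered no changed probe set. The promoters shown were chosen after the values were seen, by a rule that was changed because some genes first picked had no entry or lay in another gene. That rule also left out a whole chromosome.

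Described in full were the 12 largest rises and falls among genes that were called without overlap (9 and 11 met this), genes called both ways, calls of 2-fold or more, and Usp14, Uchl1, Uchl3, Uchl5, Otub1 and Usp7. Same-numbered arrays did not deviate together (correlation 0.00715 over 22525 probe sets). Figures used matplotlib 3.10.9.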

Additional observations from a re-analysis of the deposited data

How the results depend on the processing

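Of the 20 called genes, 8 kept their call in the 18 alternatives run at the 0.05 threshold: Otud6b, Usp11, Usp14, Usp19, Usp21, Usp39, Usp48 and Usp54. These are calls of the gene-level fit. In the fit over probe sets, the brightest probe set of Usp11 lost its call in 4 of 17 settings. That of Usp39 lost it in 1 of 16, and those of Usp48 and Usp54 in 1 of 17 each. Those of Otud6b, Usp14, Usp19 and Usp21 kept it. With quantile scaling 10 member probe sets and 5 genes were lower, and with the tested probe sets centred 11 and 6. Scaling on the mean of the spike-ins gave 7 higher and 29 lower probe sets and 4 higher genes. Their median, chosen after seeing the data, gave 9 higher and 24 lower probe sets, and 5 higher and 16 lower genes. It called 5.81% of all tested probe sets higher and 34.4% lower, and 672 of all 11814 tested genes higher and 5291 lower. A filter on the mean log2 value, also chosen after seeing the data, tested 22519 probe sets and gave the same member counts as the planned filter, 16 and 18 probe sets and 9 and 11 genes. Without a filter 7 probe sets were higher and 11 lower, beside 2.76% and 8.98% of all probe sets. No intensity trend gave 10 higher and 8 lower probe sets and 4 higher genes. A threshold of 0.01 gave 8 and 11 probe sets and 4 and 7 genes. Among all tested probe sets these settings called 6.01% and 5.70% higher, and 16.8% and 18.2% lower. Of all 11814 tested genes they called 832 and 741 higher, and 3239 and 3154 lower. With each array left out in turn, 7 to 15 probe sets were higher and 12 to 18 lower, and 4 to 10 genes were higher and 7 to 12 lower. Among the members the fewest higher came without knockdown replicate 2 and the fewest lower without knockdown replicate 1. Over all tested probe sets, each of these fits also called fewer in each direction than the main fit. A loss of member calls here is therefore not one of the members alone. The median of all tested probe sets lay between -0.138 and -0.090, beside -0.112 in the main fit. That of the member probe sets lay between -0.081 and -0.0040, beside -0.032. The lone array of a group is there assumed to vary like the other group. No filter adjusts over more probe sets, and it also changed the standard errors. At gene level that of Usp1 went from 0.099 to 0.13 and that of Usp10 from 0.071 to 0.057. A left-out array leaves fewer samples. The causes of the shifts were not tested.

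Among described probe sets the direction turned only where none had passed. Otub1 went to 0.052 with quantile scaling, to 0.081 with the tested probe sets centred, and from -0.12 to 0.023 with 1 array left out. Usp7 at its brightest went to 0.092 and 0.031 under the same scalings. A dim Usp15 probe set at -0.11 went to 0.023 with the tested probe sets centred. Another at 0.054 went to -0.089 and -0.057 with the mean and median of the spike-ins, and from -0.29 to 0.40 with 1 array left out.

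With the replicate number as a block 15 member probe sets were higher and 20 lower, and 9 genes higher and 11 lower. Among all tested probe sets 10.7% were then higher and 27.2% lower, and of all 11814 tested genes 1205 were higher and 4206 lower. The samples share only a number, and the block moved no count by over 1.5 times.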
